A study of Mus musculus with 6 samples.

Results

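Sirtuins are enzymes that use NAD+ to remove acyl groups from lysines, so their activity is tied to the metabolic state of the cell. SIRT1, SIRT6 and SIRT7 act mainly in the nucleus on histones and transcription regulators, SIRT2 is mainly cytosolic and deacetylates tubulin, and SIRT3, SIRT4 and SIRT5 reside in mitochondria. SIRT3 is the main mitochondrial deacetylase, SIRT4 has weak deacylase and lipoamidase activity, and SIRT5 removes the acidic succinyl, malonyl and glutaryl groups. Expression of the 7 sirtuin genes, Sirt1 to Sirt7, was examined in mouse acute myeloid leukemia (AML) blasts with and without Tet2, which encodes an enzyme that oxidizes methylated cytosine in DNA. All 7 genes passed the filter on low counts, among 22170 genes tested and 53458 genes with an annotated transcript. Sirt5 was singled out by the study on these same samples together with others, so its direction here is not independent evidence, and the question asked was whether the other sirtuins differed in the same way.

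RNA-seq was performed on bone marrow blasts (strain C57BL/6 in the labels; C57BL/6J donors and C57BL/6J.SJL recipients in the methods of the study) from 3 Cebpa-/p30 Tet2+/+ leukemias (mice 19, 23 and 24) and 3 Cebpa-/p30 Tet2-/- leukemias (mice 5, 7 and 8). Both groups lacked the full-length p42 form of C/EBPα and kept only the p30 form, since Mx1-Cre, an interferon-inducible recombinase active in hematopoietic and some other cells, deleted the floxed Cebpa allele in both groups and Tet2 in one of them. Donor marrow was transplanted into lethally irradiated recipients, recombination was induced with poly(I:C), and live donor-derived cells negative for the lymphoid markers CD3 and B220 and the erythroid marker Ter119 were sorted from moribund mice. Each library is 1 mouse; the study used several donors per genotype with several recipients each, and the labels do not tie mice to donors, so p-values measure the spread between these mice.

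The libraries held 13036643 to 32855343 estimated reads, with the mouse 5 library the deepest, and the remaining 5 held at most 18478656. In CPM, the reads of a gene scaled to library size and TMM factor, Tet2 itself was at 73.6, 79.5 and 98.4 in Tet2+/+ mice and 111, 79.4 and 96.7 in Tet2-/- mice. A conditional allele removes only a segment of a gene, and these sums cover every transcript, so the value does not check the labels. Cebpa was at 140, 194 and 287 CPM against 158, 75.7 and 124 CPM (adjusted p = 0.632, edgeR). Markers of myeloid blasts dominated, led by Mpo at a mean of 3670 CPM, and their summed level overlapped between genotypes (8120 to 10100 CPM in Tet2+/+ and 7770 to 11400 CPM in Tet2-/-).

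The sequences that bear on Sirt5 are its start region and the ends of its coding sequence. The upstream region is shown for its CG dinucleotides, the sequence whose methylated form TET2 oxidizes. RNA libraries hold no methylation values, and the methylation that the study measured separately was not analysed here. Capitals mark each CG. The region lies at chr13:43365285-43365495 on the plus strand (GRCm38.p6, RefSeq promoter table), cut where the first annotated Sirt5 transcript begins, and it holds 9 CG.
Sirt5 promoter: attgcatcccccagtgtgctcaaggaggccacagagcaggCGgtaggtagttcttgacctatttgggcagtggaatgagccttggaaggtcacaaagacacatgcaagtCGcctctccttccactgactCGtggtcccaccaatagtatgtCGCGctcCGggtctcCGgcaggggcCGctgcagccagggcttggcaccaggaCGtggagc

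Over the 250 bases before the RefSeq start, searched for CG (which reads the same on both strands), Sirt5 had 13. The other sirtuins spanned 12 for Sirt7 to 39 for Sirt1, with 13 for Sirt2, 14 for Sirt4, 18 and 21 for the 2 Sirt3 starts, and 20 and 13 for the 2 Sirt6 starts. Across all 32851 promoters in the table the median was 6, 92.1% held at least 1 CG, and 68.5% held fewer than Sirt5. By this count Sirt5 equals Sirt2 and lies at the lower end of the sirtuins. No relation between this count and expression was tested.

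Sirt5 has 11 annotated transcripts, and the most abundant of them differ at the 3′ end of the coding sequence. They are shown because the Sirt5 transcripts were compared by the end they use. Lower case gives the last 40 bases of the exon that ends at position 43385613 of chromosome 13, and capitals give what follows up to and including the stop codon (GRCm38, GENCODE transcripts).
Sirt5-206: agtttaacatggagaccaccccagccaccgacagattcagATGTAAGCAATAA
Sirt5-211: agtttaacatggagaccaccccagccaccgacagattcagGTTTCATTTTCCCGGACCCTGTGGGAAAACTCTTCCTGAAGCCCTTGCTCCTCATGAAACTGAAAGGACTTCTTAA
Sirt5-209: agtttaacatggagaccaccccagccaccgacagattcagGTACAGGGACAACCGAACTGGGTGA

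Sirt5-206 splices to a near last exon (chr13:43387050-43387656) and adds 13 bases, giving 289 codons before the stop. Sirt5-211 splices to a far last exon (chr13:43394737-43395203) and adds 76 bases, giving 310 codons. Sirt5-209 reads through the shared exon into the following intron, with a stop codon within 25 bases, and its last exon (chr13:43385498-43387656) contains the bases of the near last exon. Sirt5-203 shares the near last exon with Sirt5-206, and Sirt5-201 shares the far last exon with Sirt5-211.

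Sirt5 (chr13:43365496-43395203) was the only sirtuin lower in all 3 Tet2-/- mice than in any Tet2+/+ mouse. It measured 13.3, 15.4 and 18.4 CPM in Tet2+/+ blasts and 7.94, 5.66 and 5.37 CPM in Tet2-/- blasts. These values rest on 223, 288 and 261 estimated reads against 251, 88 and 99, the mouse 5 library being the deepest. The groups did not overlap, which also held in TPM, a level scaled to transcript length, where Sirt5 was at 4.24, 5.75 and 6.67 against 2.35, 1.72 and 1.77. Of the 13839 genes tested that averaged 1 CPM or more, 7.71% were lower without overlap in the same way, so the separation alone is not unusual.

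The log2 fold change of Sirt5 was -1.31 (SE 0.27), a 2.48-fold lower level, and 4.26% of the genes at 1 CPM or more had a more negative value. edgeR gave an unadjusted p of 0.00166, ranking 138 of all genes by p, and an adjusted p of 0.267, which does not pass 0.05. In all, 10 genes were past that threshold in the lower direction (0.0451% of those tested) and none in the higher direction, where 664 genes had an unadjusted p under 0.05; DESeq2 called 59 genes higher and 326 lower. DESeq2 gave Sirt5 an adjusted p of 0.00106 at a log2 fold change of -1.30, and it was the only sirtuin that DESeq2 called, beside 1.47% of all genes called lower. Over the 15 alternative settings the adjusted p ranged from 0.000885 to 0.72, while the log2 fold change stayed between -1.52 and -1.18. The exact two-sided permutation test over the 6 mice gave p = 0.1, the smallest that 3 against 3 allows.

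**Figure D1:**
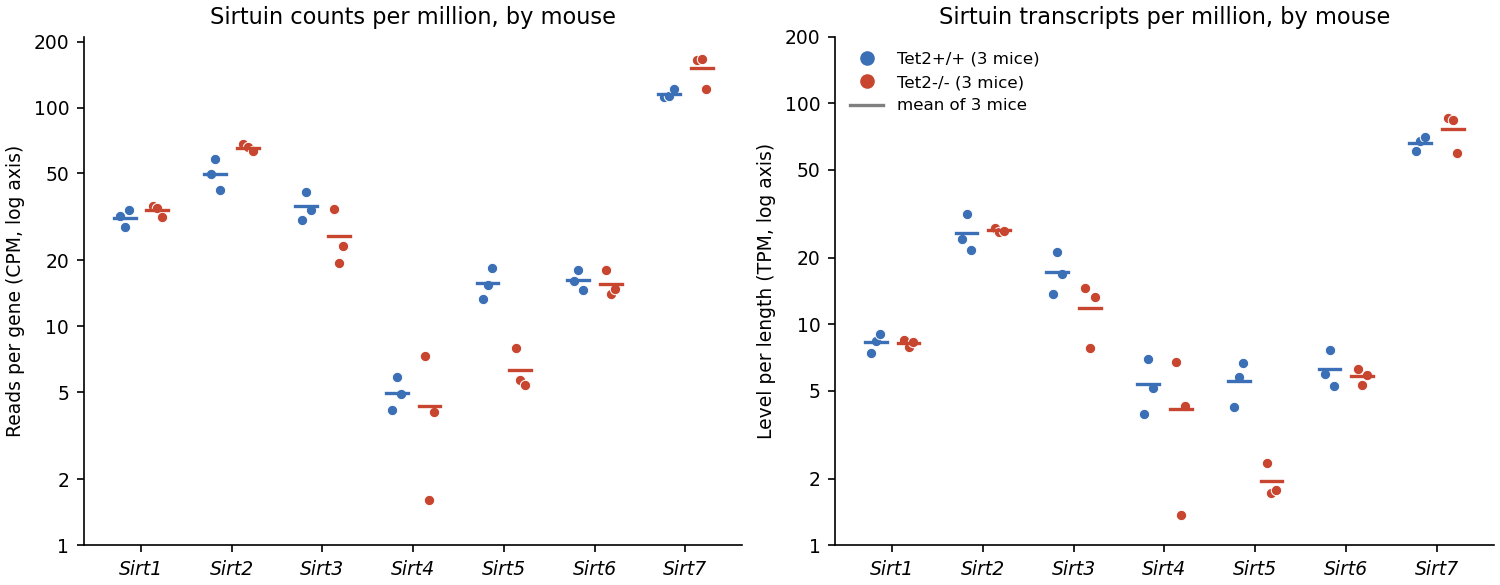
Expression of the 7 sirtuin genes in each mouse, in CPM (left) and TPM (right), both on log axes; points are single mice and bars the means of 3 Tet2+/+ or 3 Tet2-/- mice. Sirt5 separates downward on both scales (4.24 to 6.67 TPM against 1.72 to 2.35 TPM), whereas Sirt2 and Sirt7 separate upward in CPM but overlap in TPM.

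Sirt3 and Sirt4, the other mitochondrial sirtuins, were lower on average but with overlapping groups. Sirt3 (chr7:140863666-140882309) was at 30.7, 41.2 and 34.2 CPM in Tet2+/+ mice and 34.5, 19.5 and 23.3 CPM in Tet2-/- mice. The mouse 5 value lay within the Tet2+/+ range and the other 2 lay below it. Its log2 fold change was -0.45 (SE 0.25, adjusted p = 0.692, edgeR). Left-out mice moved this value between -0.73 without mouse 5 and -0.29 without mouse 7.

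Sirt4 (chr5:115478010-115484725) was the least counted member, at 4.13, 5.84 and 4.93 CPM against 7.34, 1.61 and 4.07 CPM. The highest and the lowest of the 6 values were both Tet2-/- mice, and the mouse 7 library held only 25 estimated reads of the gene. The log2 fold change of -0.19 (SE 0.54, adjusted p = 0.957, edgeR) became 0.21 without mouse 7 and -0.81 without mouse 5. Its SE was the largest of the family.

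Among the nuclear sirtuins, Sirt1 and Sirt6 had nearly the same level in both genotypes. Sirt1 (chr10:63319005-63381704), a deacetylase of p53 and FOXO factors, was at 31.8, 28.3 and 34.1 CPM in Tet2+/+ and 35.5, 34.7 and 31.6 CPM in Tet2-/- mice. Sirt6 (chr10:81621785-81627797), a histone H3 deacetylase linked to DNA repair and glycolysis, was at 16.2, 18.1 and 14.6 CPM against 18.0, 14.1 and 14.8 CPM. The groups overlapped for both genes, although 2 of the 3 Tet2-/- values of Sirt1 lay above every Tet2+/+ value. The log2 fold changes were 0.11 (SE 0.16) and -0.06 (SE 0.21), and the sign of each depended on the setting: Sirt1 was at -0.06 when only library size was corrected, and Sirt6 was at 0.01 in DESeq2 on length-scaled counts.

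Sirt7 (chr11:120618372-120625240), which acts on ribosomal DNA transcription, was the most abundant sirtuin and was higher in every Tet2-/- mouse. It measured 112, 113 and 121 CPM in Tet2+/+ mice and 165, 167 and 122 CPM in Tet2-/- mice. The mouse 8 library stood just above the highest Tet2+/+ value and the other 2 well above it. In TPM the groups overlapped, at 61.1, 67.2 and 70.7 against 86.2, 83.8 and 59.8. The log2 fold change was 0.40 (SE 0.18, adjusted p = 0.634, edgeR), and 0.21 when only library size was corrected, a scaling that moved the median of all genes to -0.17.

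Sirt2 (chr7:28766735-28788661) was at 49.5, 58.1 and 41.8 CPM in Tet2+/+ blasts and 67.9, 65.7 and 63.3 CPM in Tet2-/- blasts. The groups did not overlap, beside 8.24% of genes at 1 CPM or more that were higher in this way. In TPM, however, Sirt2 was at 24.4, 31.4 and 21.6 against 27.2, 26.2 and 26.4, with the Tet2-/- mice inside the Tet2+/+ range. The log2 fold change of 0.40 (SE 0.17, adjusted p = 0.62, edgeR) was 0.16 on counts scaled for transcript length.

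**Figure D2:**
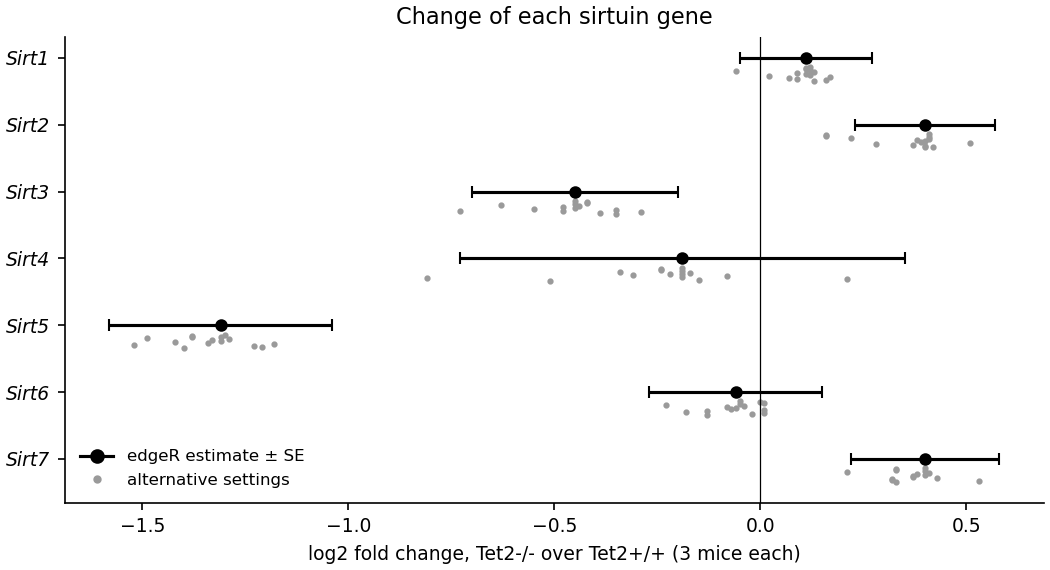
Log2 fold change of each sirtuin gene, Tet2-/- over Tet2+/+ (3 mice each); black points with bars are edgeR estimates ± SE and grey points the 15 alternative settings. Sirt5 stays between -1.52 and -1.18 in all of them, the values of Sirt1, Sirt4 and Sirt6 fall on both sides of 0, and those of Sirt2, Sirt3 and Sirt7 keep their sign.

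In level per length, the order in Tet2+/+ blasts was Sirt7 (mean 66.3 TPM), Sirt2 (25.8), Sirt3 (17.3), Sirt1 (8.27), Sirt6 (6.30), Sirt5 (5.55) and Sirt4 (5.35). The ranges of the first 4 did not overlap with their neighbours down to Sirt1, whereas Sirt1 and Sirt6, Sirt6 and Sirt5, and Sirt5 and Sirt4 overlapped. In Tet2-/- blasts the order of the first 5 was the same, and Sirt5 (1.95 TPM) came last behind Sirt4 (4.13 TPM), with overlapping ranges. Sirt5 made up 3.51, 3.87 and 4.93% of the summed sirtuin TPM in Tet2+/+ mice and 1.55, 1.28 and 1.48% in Tet2-/- mice. Its place among the 7 was 6, 7 and 5 in the Tet2+/+ mice and 7, 6 and 7 in the Tet2-/- mice, so a low rank was not confined to Tet2-/- blasts.

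To ask whether Sirt5 differed from its relatives, the log2 ratio of Sirt5 to each other sirtuin was taken within each library, where library size and composition cancel. Against 5 of the 6, the ratio was lower in every Tet2-/- mouse than in any Tet2+/+ mouse. Relative to Sirt1 the ratio was -1.26, -0.87 and -0.89 in Tet2+/+ mice and -2.16, -2.61 and -2.55 in Tet2-/- mice, a difference of -1.43 (SE 0.19). The difference was -1.73 (SE 0.28) relative to Sirt2, -1.26 (SE 0.21) relative to Sirt6 and -1.70 (SE 0.18) relative to Sirt7. All 6 ratios share the Sirt5 reads, so they are not independent of each other or of the Sirt5 values in CPM. Each of these differences gave p = 0.1 in the exact two-sided permutation test, the smallest possible with 3 against 3, so none of the 6 comparisons could pass 0.05.

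The ratios to the mitochondrial relatives were taken in the same way. Relative to Sirt3 the ratio was -1.21, -1.42 and -0.90 in Tet2+/+ mice and -2.12, -1.79 and -2.11 in Tet2-/- mice. These groups were still separate, with a difference of -0.83 (SE 0.19, exact permutation p = 0.1). Relative to Sirt4 the ratio was 1.69, 1.40 and 1.90 against 0.11, 1.82 and 0.40, and mouse 7 lay inside the Tet2+/+ range. The difference of -0.89 (SE 0.55) gave an exact permutation p of 0.3 and became -0.55 without mouse 5 and -1.41 without mouse 7, so a lower level of Sirt5 relative to Sirt4 was not distinguished from the spread between mice. Computed from TPM, the 6 differences ran from -1.69 to -0.89 and the same 5 groups were separate.

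**Figure D3:**
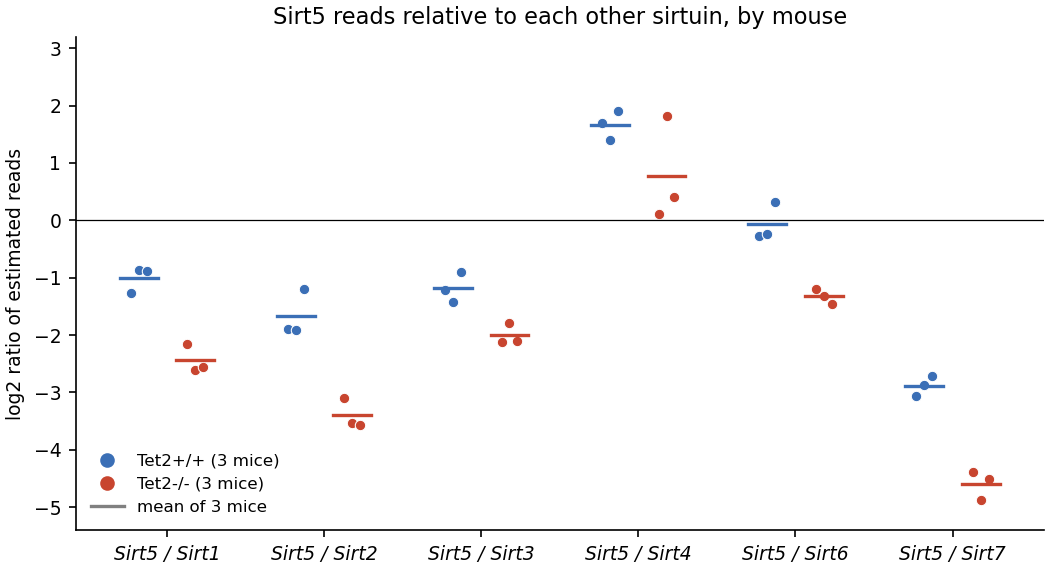
Log2 ratio of Sirt5 reads to the reads of each other sirtuin in the same library; points are single mice and bars means of 3. The Tet2-/- points lie below the Tet2+/+ points for every partner except Sirt4, where mouse 7 (1.82) falls among the Tet2+/+ values.

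At the level of transcripts, 34 of the 59 annotated sirtuin transcripts had a mean of at least 0.5 TPM and were tested with limma on log2(TPM + 1). Of these 19 had a negative and 15 a positive difference (Tet2-/- minus Tet2+/+), and 0 passed an adjusted p of 0.05, beside 0.0643% of all transcripts tested. An unadjusted p under 0.05 was obtained for 3 of them, Sirt5-206, Sirt2-206 and Sirt3-203, against 6.67% of all transcripts. On this scale a difference understates the change of a low transcript. With 0.1 added in place of 1, it was -2.53 for Sirt5-206, -0.81 for Sirt5-209, -4.03 for Sirt2-206 and -1.25 for Sirt3-203. TPM carry no TMM factor, which was 0.996, 1.11 and 1.09 in Tet2+/+ mice and 0.963, 0.867 and 0.998 in Tet2-/- mice. Relative to Tet2+/+, Tet2-/- values therefore read lower in TPM than in CPM on average. With TPM divided by this factor, these differences were -1.40, -0.34, -1.72 and -0.70. None passed the threshold in either setting.

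Sirt5-206, the form with the near last exon, was at 2.47, 3.44 and 3.98 TPM in Tet2+/+ mice and 0.477, 0.752 and 0.294 TPM in Tet2-/- mice. Its difference was -1.50 (SE 0.24, adjusted p = 0.185, limma), and it carried 55.2% ± 1.25 (SD, n = 3) of the reads of the gene in Tet2+/+ but 24.1% ± 13 (SD, n = 3) in Tet2-/- blasts. The read-through form Sirt5-209 was at 1.03, 1.33 and 1.40 TPM against 0.868, 0.580 and 0.578 TPM. It too was lower without overlap, as were 7.65% of all transcripts, but by less, at -0.43 (SE 0.21, adjusted p = 0.771, limma). The 2 transcripts were the only ones of Sirt5 abundant enough to test.

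The 11 Sirt5 transcripts were then summed by the last exon they use, a grouping chosen after their values were seen. Transcripts with the near last exon held 120, 162 and 145 estimated reads in Tet2+/+ mice and 69.4, 34.4 and 19.8 in Tet2-/- mice, or 8.68 ± 1.52 against 1.83 ± 0.651 CPM (mean ± SD, n = 3). Transcripts with the far last exon held 28.0, 28.0 and 35.9 reads against 56.0, 11 and 31.9, or 1.90 ± 0.551 against 1.40 ± 0.602 CPM (mean ± SD, n = 3). The near class did not overlap between genotypes and the far class did. The near class accounted for 73.0% of the difference in mean CPM of the gene, the read-through transcript for 21% and the far class for 5.28%.

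The shares of the near and read-through classes did not overlap between genotypes, while that of the far class did (12.6, 9.7 and 13.8% in Tet2+/+ mice against 22.4, 12.5 and 32.2%, exact permutation p = 0.3). The near class took 53.8, 56.2 and 55.6% of Sirt5 reads in Tet2+/+ mice and 27.7, 39.0 and 20% in Tet2-/- mice, whereas the read-through transcript took 32.1, 31.3 and 28.3% against 46.4, 42.8 and 42.5%. The ratio of near to far reads was 4.28, 5.79 and 4.04 in Tet2+/+ mice and 1.24, 3.12 and 0.622 in Tet2-/- mice. On the log2 scale this was a difference of -1.79 (SE 0.69, exact permutation p = 0.1, the smallest possible), and -1.24 to -2.40 with single mice left out. Reads from shared exons are divided among transcripts by the estimator, and the far class rests on 11 to 56 reads, so these shares carry more error than the sum of the gene. The near and read-through classes have the bases of the near last exon in common.

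**Figure D4:**
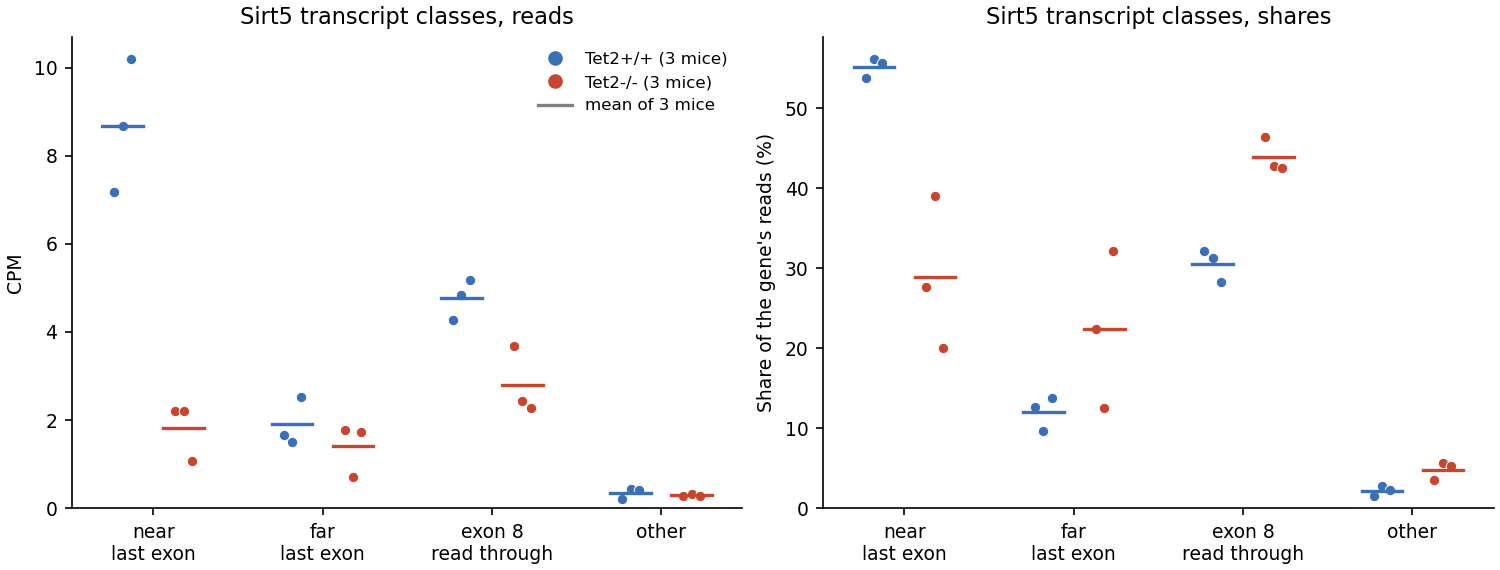
Sirt5 reads by transcript class, as CPM (left) and as a share of the reads of the gene (right); points are single mice and bars means of 3. The near-last-exon class averages 8.68 CPM in Tet2+/+ and 1.83 CPM in Tet2-/- mice, and the far-last-exon class overlaps between genotypes.

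By the sign of the limma difference, all tested transcripts were negative for the mitochondrial sirtuins (7 of Sirt3, 3 of Sirt4 and 2 of Sirt5), and 7 of 8 were positive for Sirt7. Signs were mixed for Sirt1 (2 negative, 1 positive), Sirt2 (3 and 4) and Sirt6 (1 and 3). Transcripts of 1 gene share reads. Some of these differences were close to 0, such as those of Sirt3-204 (-0.01, SE 0.65) and Sirt3-205 (-0.05, SE 0.51). TPM carry no TMM factor, so the signs of such small differences are not settled. The share of negative differences over all tested transcripts is not given here, so the sign counts have no background to be read against. Of the 7 tested Sirt3 transcripts, 3 were lower without overlap (7.65% of all transcripts were), including Sirt3-203 at 1.28, 3.12 and 3.02 TPM against 0.920, 1.03 and 0.788 TPM (-0.81, SE 0.29, adjusted p = 0.715, limma). The main Sirt3 transcript, Sirt3-202, with 48.3% of the Sirt3 reads in Tet2+/+ blasts, was at 7.29, 9.08 and 6.17 TPM against 8.63, 5.08 and 4.28 TPM and overlapped. Sirt2-206, a short transcript annotated with a retained intron, was at 4.12, 3.15 and 2.17 TPM in Tet2+/+ mice and 0.617, 0 and 0 TPM in Tet2-/- mice (-1.79, SE 0.31, adjusted p = 0.207, limma). It went the opposite way from the Sirt2 gene, of whose reads it held 4.24% in Tet2+/+ blasts. The main coding forms Sirt2-201 and Sirt2-202 both overlapped between genotypes.

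Sirt7-201, the main Sirt7 transcript, was at 18.1, 19.9 and 21.5 TPM against 20.7, 27.2 and 19.8 TPM, and its share of the Sirt7 reads was 51.0% in Tet2+/+ and 49.3% in Tet2-/- blasts. Most reads of Sirt1 (72.7% and 72.2%) were assigned to Sirt1-205, a form annotated as a target of nonsense-mediated decay, with no difference beyond the spread. The 3 tested Sirt4 transcripts were all annotated with retained introns. Sirt6-201 was at 2.59, 3.81 and 3.01 TPM against 2.48, 2.49 and 1.86 TPM, lower without overlap. Its difference was -0.33 (SE 0.22, adjusted p = 0.837, limma). The gap, from 2.49 to 2.59 TPM, was narrow, and TPM carry no TMM factor, so this separation depends on the scaling. Of the 34 transcripts tested, Sirt2-206 and Sirt5-206 had the largest differences in size.

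Sirt5 overlaps no other annotated gene. Of 22 annotated genes within 500 kb of it, 7 were tested and none was past the threshold in edgeR, was lower without overlap, or had an unadjusted p under 0.05, which 8.11% of all genes had. The closest, Nol7, a nucleolar protein gene starting 3.19 kb downstream, ranged from 50.8 to 58.6 CPM in Tet2+/+ and 45.7 to 60.4 CPM in Tet2-/- mice. Ranbp9 had a log2 fold change of 0.26 (SE 0.21), Gfod1 -0.28 (SE 0.38), Mcur1 0.12 (SE 0.19), Tbc1d7 0.09 (SE 0.29) and Cd83 -0.19 (SE 0.52). Phactr1, 227 kb upstream, was low in all mice, at 0.775 to 4.18 CPM against 0 to 0.949 CPM (log2 fold change -2.67, SE 1.14, adjusted p = 0.621, edgeR).

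Some other sirtuins share bases with a neighbour, and the library kit did not mark strand. Sirt7 and Mafg, a small MAF transcription factor gene on the same strand, share 124 bases, and Mafg had a log2 fold change of 0.55 (SE 0.23, adjusted p = 0.609, edgeR). Sirt2 shares 778 bases with Nfkbib on the opposite strand (0.38, SE 0.22). Sirt3 shares 707 bases with Ric8a (-0.06, SE 0.17) and 342 with the proteasome gene Psmd13 (0.34, SE 0.16). None of these neighbours passed the threshold. Reads in these stretches cannot be told apart without strand where the genes lie on opposite strands, and the part of shared reads in the sirtuin values was not tested. Sirt1 overlaps the antisense gene Gm16145, which was too low to test, and Sirt7 also overlaps the microRNA gene Mir6936.

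The genes whose log2 CPM followed Sirt5 most closely over the 6 mice, among 13838 others at 1 CPM or more, were Usp11 (Pearson r 0.996), AC157931.1 (0.995), Igkv9-120 (0.995), Ighj3 (0.995) and Gm45033 (0.994). Usp11, a deubiquitinase gene, was at 22.7, 27.3 and 33.0 CPM against 14.9, 11.1 and 11.5 CPM (log2 fold change -1.14, SE 0.23, adjusted p = 0.255, edgeR). Igkv9-120 and Ighj3 are immunoglobulin segments of B cells. The points share the genotype contrast and the libraries, so r is a description. The r with Sirt5 was 0.805 for Sirt3, 0.484 for Sirt4, 0.327 for Sirt6, -0.348 for Sirt1, -0.623 for Sirt7 and -0.815 for Sirt2.

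Marker lists of other cell types were summed, and not all of them differed between genotypes. These lists are not exclusive to other cells. The basophil and mast cell list includes Gata2, which the study measured in the sorted blasts, and the blasts carried the myeloid marker Mac1. The sums may therefore include RNA of the blasts. Summed B and plasma cell markers (7 of 8 genes lower) were at 161 to 264 CPM in Tet2+/+ and 51.4 to 109 CPM in Tet2-/- mice, with Jchain the most abundant at a mean of 82.9 CPM. Basophil and mast cell markers (3 of 4 tested lower) were at 304 to 396 against 30.8 to 110 CPM, led by Cpa3 at a mean of 186 CPM. Both lists were lower without overlap in Tet2-/- blasts, as was the T and NK cell list (5 of 9 lower), at 44.7 to 48.3 against 15.7 to 44.4 CPM. Erythroid (7 of 7 lower; 4.50 to 64.0 against 4.70 to 9.34 CPM), megakaryocyte (3 of 4; 24.6 to 45.5 against 9.17 to 26.3 CPM) and monocyte markers (1 of 6; 1610 to 2830 against 2470 to 4520 CPM) overlapped. No marker of these lists was at 0 in all mice, none was past the threshold in edgeR, and in bulk RNA fewer cells of a type cannot be told from less RNA per cell. The part of these cells in the Sirt5 difference was not tested.

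The genes around the sirtuins in metabolism were examined as lists. Over all tested genes the median log2 fold change was 0.00, with 11112 of 22170 higher. Among genes at 1 CPM or more it was 0.05, with 7710 of 13839 higher. Among 19 tested genes of NAD synthesis and salvage, 6 were higher and 13 lower, the median was -0.07 and 0 passed the threshold. Nampt, the rate-limiting enzyme of NAD salvage, was at 124, 64.2 and 67.9 CPM against 103, 189 and 76.0 CPM (log2 fold change 0.52, SE 0.40). Naprt, which starts NAD synthesis from nicotinic acid, had 0.45 (SE 0.78), and Kynu, of the tryptophan route, -0.42 (SE 0.72). These values overlapped between genotypes.

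Of 11 tested genes for other NAD-consuming enzymes, 5 were higher, 6 lower and 0 past the threshold, with a median of -0.02. The NAD-hydrolysing ectoenzyme gene Bst1 had 0.83 (SE 0.52) and the mono-ADP-ribosyltransferase gene Parp10 0.61 (SE 0.32), both overlapping. Parp3, which takes part in DNA break repair, was at 42.4, 44.0 and 41.3 CPM against 20, 36.4 and 35.6 CPM (-0.47, SE 0.25). It was the only one of this list lower without overlap, 1 of 11 beside 7.71% of genes at 1 CPM or more.

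The 11 zinc-dependent deacetylases, which do not use NAD, were divided 5 higher to 6 lower, with a median of 0.00 and 0 past the threshold. Hdac10, a polyamine deacetylase gene, was at 17.3, 14.3 and 13.1 CPM against 21.6, 27.1 and 21.7 CPM (0.65, SE 0.21, adjusted p = 0.539, edgeR). It was higher without overlap, 1 of 11 beside 8.24% of genes at 1 CPM or more. Hdac11, under 1 CPM on average, was lower without overlap (-1.78, SE 0.90). The class I gene Hdac8 (-0.68, SE 0.40) and the class IIa gene Hdac9 (-0.95, SE 0.74) overlapped.

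Partners and substrates of SIRT1 and SIRT6 had a median of 0.10, with 9 of 15 higher and 0 past the threshold. Foxo1, a transcription factor gene, had -0.70 (SE 0.52), Acss2, for cytosolic acetyl-CoA synthetase, -0.62 (SE 0.70), and Stk11, for the kinase LKB1, 0.50 (SE 0.22). Stk11 was higher without overlap, at 156, 133 and 139 CPM against 184, 261 and 157 CPM.

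Mitochondrial substrates of SIRT3 had a median of 0.05, with 8 of 15 higher and 0 past the threshold; the median was 0.21 without mouse 7 and -0.11 without mouse 8 or with library size only, so it has no settled sign. Idh2, the mitochondrial NADP-dependent isocitrate dehydrogenase, was at 112, 137 and 119 CPM against 92.8, 45.3 and 110 CPM (-0.57, SE 0.32). Ppif, for cyclophilin D of the permeability transition pore, had -0.45 (SE 0.23), and both genes were lower without overlap, 2 of 15 beside 7.71% of genes at 1 CPM or more. Mrpl10, a mitochondrial ribosomal protein gene chosen after its values were seen, was higher without overlap (0.35, SE 0.14) and was the only member with an unadjusted p under 0.05 (adjusted p = 0.604, edgeR). Acss1, for mitochondrial acetyl-CoA synthetase, had -0.68 (SE 0.39) and overlapped.

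Substrates of SIRT5 and the enzymes that supply its acyl groups had a median of 0.07, with 15 of 23 higher and 0 past the threshold; the median was 0.21 without mouse 7, -0.02 without mouse 8 and -0.10 with library size only, so it too has no settled sign. Pkm, for the glycolytic pyruvate kinase, was at 1880, 1470 and 1300 CPM in Tet2+/+ mice and 2570, 2640 and 2710 CPM in Tet2-/- mice (0.77, SE 0.24, adjusted p = 0.527, edgeR). Each Tet2-/- mouse was above each Tet2+/+ mouse. In this list 4 of 23 genes were higher without overlap, beside 8.24% of genes at 1 CPM or more. The other way, 1 of 23, Idh2 (-0.57, SE 0.32), was lower without overlap, beside 7.71%. Aldh2, for mitochondrial aldehyde dehydrogenase, had 0.65 (SE 0.35) and overlapped, and Dhtkd1, for the E1 subunit of the 2-oxoadipate dehydrogenase that yields glutaryl-CoA, had 0.60 (SE 0.41) without overlap. Cps1, a urea cycle enzyme gene and known SIRT5 substrate, was too low to test in these blasts, as were Sarm1, Nnmt, Ppargc1a and Otc of the other lists.

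**Figure D5:**
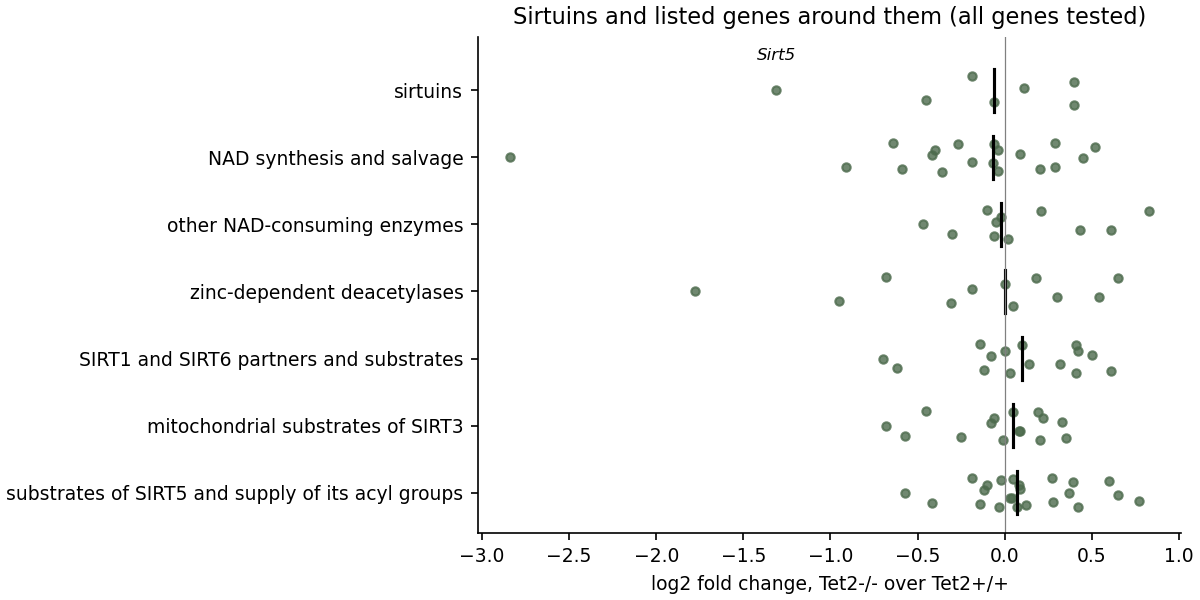
Log2 fold change (Tet2-/- over Tet2+/+) of every tested gene in the sirtuin family and 6 related lists; points are genes and black lines list medians. The medians lie between -0.07 and 0.10, and Sirt5 (-1.31) is the most negative of the 7 sirtuins; the points left of it are Tdo2 (-2.84) and Hdac11 (-1.78), both under 1 CPM on average.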

How the data were processed

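Estimated read counts and TPM per transcript were deposited by the authors for each mouse, made with Salmon 0.12.0 against GRCm38 (an Ensembl release); no replicates were pooled. Here the 136288 transcripts were assigned to genes with the GENCODE M21 annotation of GRCm38 (112 found no gene), and the deposited estimated counts were summed per gene and rounded. The TPM deposited by the authors were used as given, and CPM were computed from the counts and TMM factors. Genes with a summed normalized count of at least 10 were tested with edgeR 4.0.16 (TMM, quasi-likelihood, Benjamini-Hochberg adjustment over 22170 genes, threshold 0.05); transcripts with a mean of at least 0.5 TPM were tested with limma 3.58.1 on log2(TPM + 1). DESeq2 1.42.0, length-scaled counts, other scalings and filters, and left-out mice were alternatives; sums over protein-coding transcripts alone and the classes by last exon were added after seeing the data. The scripts were tested on simulated data.

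The members and gene lists were chosen with earlier results of these data known. Named genes were the 7 sirtuins, Tet2, Cebpa, the 3 members of each list with the largest log2 fold change at 1 CPM or more, genes overlapping a sirtuin or within 500 kb of Sirt5, and the 5 genes most correlated with Sirt5 on log2(CPM + 0.1); single transcripts were named after their values were seen. A list symbol with more than one gene ID took the lowest ID, and 1 listed gene, Slc25a52, was not found. Promoter and transcript sequences came from RefSeq (all 7 sirtuins matched) and GENCODE.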

Additional observations from a re-analysis of the deposited data

How the results depend on the processing

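No paired analysis was possible because the genotypes share no replicate numbers. Sirt5 was lower in each of 15 alternatives (-1.52 to -1.18 with single mice left out) and passed the threshold in DESeq2, at -1.30 on counts and -1.38 on length-scaled counts. Signs changed for Sirt1 (-0.06, library size only), Sirt4 (0.21 without mouse 7; range -0.81 to 0.21) and Sirt6 (0.00 and 0.01 on length-scaled counts in edgeR and DESeq2; -0.18 to 0.01 with single mice left out); the cause was not tested. The count of genes past the threshold was 10 in the reported analysis, 385 in DESeq2, 5 and 386 on length-scaled counts (edgeR and DESeq2), 66 with no filter on low counts, 1 for protein-coding transcripts only, and 0 to 7 with single mice left out, when fewer samples were fitted. With library size only, list medians became -0.24 (NAD synthesis), -0.20 (other NAD-consuming enzymes), -0.18 (zinc-dependent deacetylases) and -0.09 (SIRT1 and SIRT6 partners), beside a median of -0.17 over all genes; single mice left out moved the last 3 from -0.03 to 0.05, from -0.11 to 0.06 and from 0.00 to 0.14, and the medians of the SIRT3 and SIRT5 substrates from -0.11 to 0.21 and from -0.02 to 0.21 (-0.11 and -0.10 with library size only). With 3 mice per genotype, no permutation p can fall below 0.1, and transcript shares of Sirt5 rest on few reads.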
